A study of Rattus norvegicus with 16 samples.

Results

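The hairpin rno-mir-31 gives rise to a pair of miRNAs, mir-31-5p and mir-31-3p, 1 from each arm of the precursor. Its 2 arms are among 712 arms of 392 hairpins with reads in 16 small RNA libraries of rat tissues. The hairpin was chosen by its measured levels in the tissues. Both arms met a 5-fold rule, under which the level in liver had to be at least 5 times the level in each other tissue in both strains. Their levels by tissue are therefore given as a description, without a test.

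The libraries were made from 6 organs (spleen, kidney, testis, heart, liver and the whole brain) of male adults of the inbred rat strains BN-Lx and SHR. In the study, BN-Lx is the brown Norway strain with polydactyly-luxate syndrome and SHR the spontaneous hypertensive rat. The labels name no treatment, and no genotype other than the strain. Each tissue and strain had 1 library in a set of 12, named the six-tissue set here, and all 6 tissues of a strain came from 1 rat. The 4 further livers, 2 of each strain, bring the livers to 3 per strain and are called livers 2 and 3, the liver of the six-tissue set being liver 1. RNA came from whole organs, so fewer cells of a type and less RNA per cell cannot be told apart.

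A miRNA hairpin is cut by Drosha and Dicer into a short duplex, and either strand of the duplex can be loaded into an Argonaute protein. The loaded miRNA recognises mRNAs mainly through its seed, bases 2 to 8, so a start that moves by 1 base changes the seed, whereas a different 3′ end does not. mir-31 is known mostly from epithelia, from muscle stem cells and from tumours, where its level is often altered. The liver itself is dominated by mir-122, the miRNA of hepatocytes.

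In the RefSeq annotation of the GRCr8 assembly the mir-31 hairpin, entered as Mir31, lies at chr5:108714849-108714954 on the minus strand, inside the long non-coding RNA gene LOC130062807. The table does not say whether that is exon or intron. A second hairpin, Mir3554, covers the same bases on the plus strand at chr5:108714843-108714960, and its reads stand in the files as the antisense form of mir-31. The mature RefSeq sequences are shown with the commonest read of mir-31-5p and the later starts of mir-31-3p, since the start decides which seed is present. Capitals mark the seed, and positions count from 1 at the 5′ end of the hairpin.
rno-miR-31a-5p, positions 28 to 49: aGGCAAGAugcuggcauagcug
mir-31-5p, commonest read, positions 28 to 48: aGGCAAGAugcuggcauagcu
rno-miR-31a-3p, positions 64 to 86: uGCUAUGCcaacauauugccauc
mir-31-3p read from 1 base later, positions 65 to 86: gCUAUGCCaacauauugccauc
mir-31-3p read from 2 bases later, positions 66 to 87: cUAUGCCAacauauugccaucu
mir-31-3p read from 3 bases later, positions 67 to 87: uAUGCCAAcauauugccaucu
rno-miR-31b, the product of Mir3554: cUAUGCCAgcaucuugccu

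The RefSeq table held no other rat miRNA with the seed of mir-31-5p, nor one with the seed of mir-31-3p from position 64, 65 or 67, among 693 mature entries. The mir-31-3p reads from position 66 carried the same seed as rno-miR-31b. The 19 bases of rno-miR-31b are the exact complement of positions 28 to 46 of the mir-31 hairpin, which lie wholly within mir-31-5p.

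The level of an arm is its reads over the ocm, the outlier-corrected mean. For each library this is the mean number of reads over the arms of known loci after the 3 arms with most reads are left out, so a level of 1 is that of the average arm. mir-31-5p was at 11.8 in BN-Lx liver 1 (4738 reads) and at 5.55 in SHR liver 1 (2387 reads). In kidney it was at 1.60 in BN-Lx and 0.763 in SHR, and in brain at 1.47 and 0.936. These tissues held the next highest levels, kidney in BN-Lx and brain in SHR. Heart had 0.522 in BN-Lx and 0.741 in SHR, and spleen 0.149 and 0.159. Testis, the shallowest pair of libraries, held 11 reads of BN-Lx and 5 of SHR, or levels of 0.345 and 0.140. The order from liver down to brain and kidney, then heart, then testis and spleen is that of the tissue means. Brain and kidney did not differ beyond the spread between the strains, with means of 1.20 ± 0.379 and 1.18 ± 0.595 (SD, n = 2 each), and neither did testis and spleen, at 0.243 ± 0.145 and 0.154 ± 0.00755.

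mir-31-3p, the less abundant arm, was at 1.53 in BN-Lx liver 1 (611 reads) and 1.03 in SHR liver 1 (441 reads). Elsewhere it stayed between 0.0155, in SHR kidney, and 0.219, in BN-Lx testis. The testis values were the next highest in both strains but rest on 7 and 5 reads. Leaving testis out, the arm was 14.9 times as high in BN-Lx liver 1 as in kidney, the next tissue, and 28.7 times as high in SHR liver 1 as in brain. The read numbers elsewhere were 105 and 41 for brain of BN-Lx and SHR, 72 and 13 for kidney, 21 and 25 for heart and 17 and 14 for spleen.

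**Figure D1:**
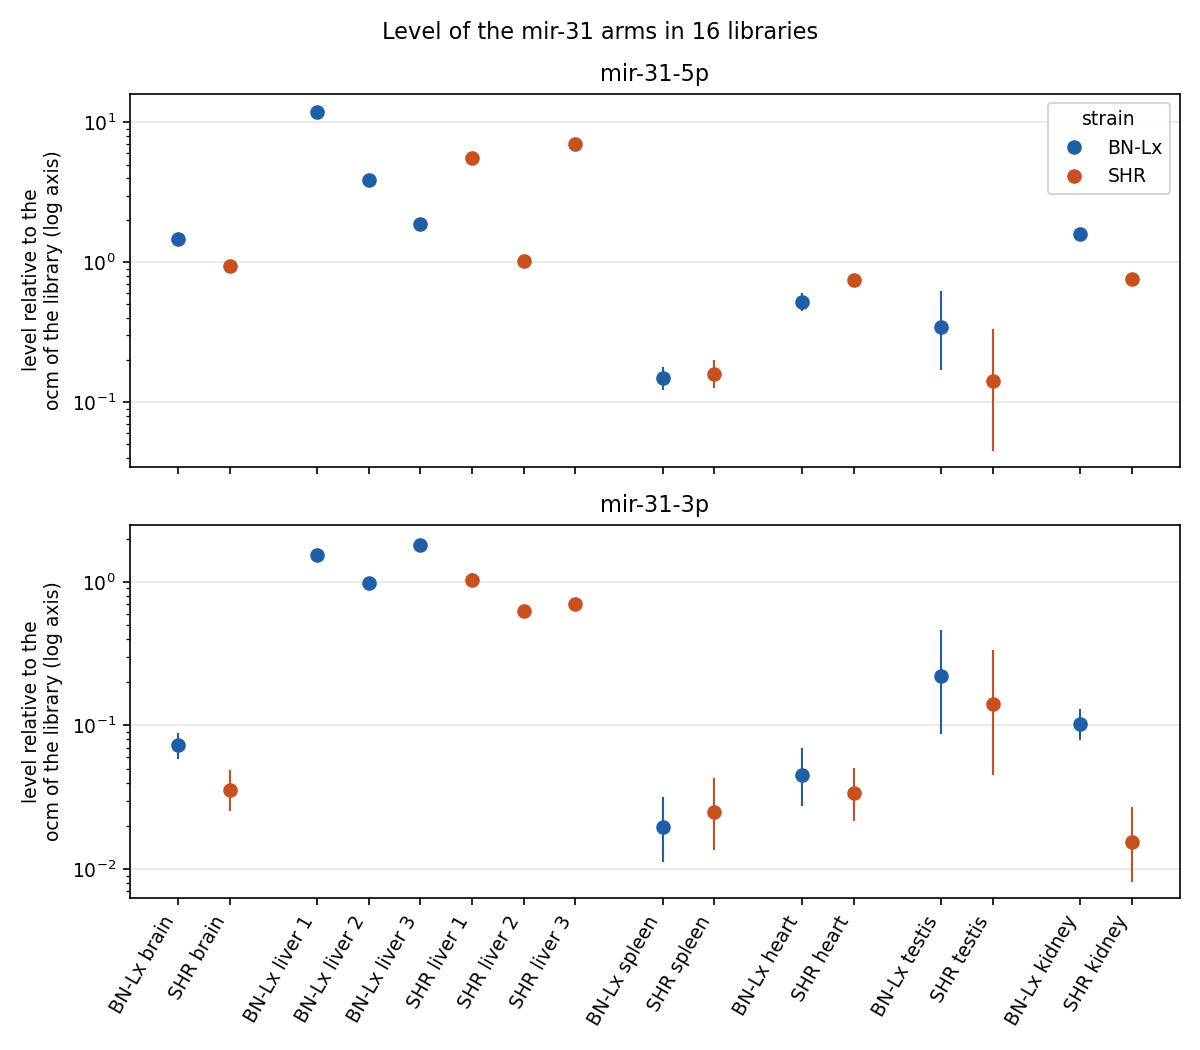
Level of mir-31-5p (top) and mir-31-3p (bottom) relative to the ocm in each of the 16 libraries, on log axes; points are libraries, coloured by strain, and vertical lines are exact 95% Poisson intervals of the read number. mir-31-5p ranges from 1.02 to 11.8 among the livers, and its lowest livers lie beside brain and kidney, while all 6 livers lie above every other library for mir-31-3p.

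The rule was met by 9 of 687 arms with reads in the six-tissue set (1.31%). The others were both arms of mir-122, both arms of mir-802 (listed under its human name), mir-675-3p (under its mouse name), mir-290-5p and an unnamed arm on a hairpin listed as sblock27530. In BN-Lx and SHR liver 1, mir-290-5p had only 1 and 3 reads and the sblock27530 arm 9 and 3. The arms of mir-31 were the ones closest to the threshold among those with at least 10 reads in each liver 1. The ratio of liver to the next tissue was 7.38 in BN-Lx and 5.93 in SHR for mir-31-5p, and 6.96 and 7.30 for mir-31-3p. Just outside were mir-365-3p, with 4.52 and 4.02, and mir-193-5p, with 4.32 and 3.85. When levels were taken per total reads of the library instead of the ocm, the ratios of mir-31-5p fell to 4.87 and 3.81, under the threshold, and those of mir-31-3p to 5.01 and 5.13. mir-122 alone gave 34.4% of all reads in BN-Lx liver 1 and 39.0% in SHR liver 1, against at most 0.342% in any library of another tissue. Per total reads without those of mir-122, the ratios in BN-Lx and SHR were 7.43 and 6.25 for mir-31-5p and 7.62 and 8.38 for mir-31-3p. With edgeR TMM factors over the six-tissue set they were 7.10 and 6.61 for mir-31-5p and 14.4 in both strains for mir-31-3p.

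The further livers were not used to choose mir-31. mir-31-5p was at 3.91 (3728 reads) in BN-Lx liver 2 and 1.88 (1574 reads) in BN-Lx liver 3. In SHR it was at 1.02 (2287 reads) in liver 2 and 7.03 (16096 reads) in liver 3. SHR liver 3 was thus the only further liver within the range of the livers 1, and the lowest liver, SHR liver 2, lay next to SHR brain. Over the 6 livers the level spanned 11.6-fold, far beyond the counting intervals, which in SHR liver 2 ran from 0.978 to 1.06. That span ranked 7th of 127 arms with at least 50 reads in every liver, whose median span was 2.99-fold.

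mir-31-3p varied less. Its level was 0.982 (937 reads) in BN-Lx liver 2, 1.81 (1515 reads) in BN-Lx liver 3, 0.626 (1404 reads) in SHR liver 2 and 0.703 (1611 reads) in SHR liver 3. Every liver was above every library of another tissue, and the span of 2.89-fold ranked 69th of the 127 arms. BN-Lx liver 3 had the most mir-31-3p and, after SHR liver 2, the least mir-31-5p, and SHR liver 3 was next to the highest for mir-31-5p and next to the lowest for mir-31-3p. The other livers stood in the same order for both arms, from BN-Lx liver 1 down to SHR liver 2.

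With a further liver in place of liver 1, mir-31-5p was 2.43 and 1.17 times as high in BN-Lx livers 2 and 3 as in kidney, and 1.09 and 7.51 times as high in SHR livers 2 and 3 as in brain. It thus met the 5-fold rule neither with the livers 2 nor with the livers 3. For mir-31-3p the ratios to testis were 4.47 and 4.46 with the livers 2 of BN-Lx and SHR and 8.24 and 5.01 with the livers 3, so that it met the rule with the livers 3 but not with the livers 2. These ratios rest on the 7 and 5 testis reads, and without testis they were 9.60 and 17.5 with the livers 2 and 17.7 and 19.7 with the livers 3. The arms of mir-122 and mir-802 met it with each set of livers. Of the 9 arms chosen on the livers 1, 4 met the rule with the livers 2 and 5 with the livers 3. Those that met it with neither were mir-31-5p, mir-675-3p, mir-290-5p and the sblock27530 arm. Of these, mir-290-5p and the sblock27530 arm had few reads in the livers 1, whereas mir-675-3p had 51 (BN-Lx) and 48 (SHR).

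**Figure D2:**
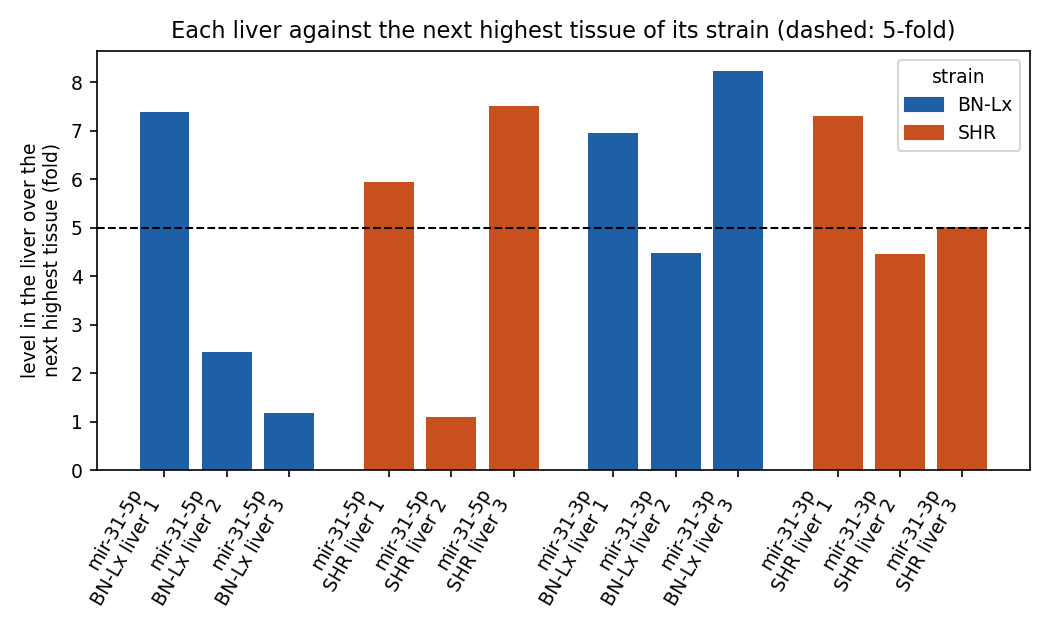
Level of each mir-31 arm in each liver, divided by its level in the next highest tissue of the same strain (fold, linear axis from 0); bars are single livers, coloured by strain, and the dashed line is the 5-fold threshold. mir-31-5p passes the line in both livers 1 and in SHR liver 3 at 7.51, and is near 1 in BN-Lx liver 3 and SHR liver 2.

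The 4 further libraries were deeper, with 1167607 to 3229461 reads against 403453 to 1064894 in the six-tissue set outside testis and 26880 to 29131 in testis. mir-122, the only hepatocyte marker used, was higher in them too, at 630 to 713 times the ocm against 403 and 454 in the livers 1. mir-126, the endothelial marker, was at 31.4 to 45.1 against 12.8 and 11.3. The 3 leukocyte hairpins, mir-142, mir-223 and mir-150, were all detected in each liver and summed to 6.81 to 11.6 against 14.1 and 16.8. The 2 erythroid hairpins summed to 2.93 to 8.87 in the further livers and 9.88 and 11.0 in the livers 1. The 4 stromal and smooth muscle hairpins summed to 66.3 to 102 against 47.8 and 54.2, and the 5 of duct epithelium to 1.10 to 2.23 against 0.612 and 0.647. Of 3 pancreas hairpins 1 or 2 were detected in a liver, with a sum of at most 0.193. The part of these values in the levels of mir-31 was not tested.

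Whether the strains differ in liver was asked with the 3 livers of each. mir-31-5p was at 5.88 ± 5.27 in BN-Lx and 4.53 ± 3.13 in SHR (SD, n = 3 each), with overlapping livers, and an exact two-sided permutation test gave p = 0.8. mir-31-3p was at 1.44 ± 0.420 in BN-Lx and 0.785 ± 0.212 in SHR. Its groups overlapped as well, since BN-Lx liver 2 lay below SHR liver 1, and the exact permutation test gave p = 0.2. With 3 livers against 3 no p below 0.1 can be reached. By the study's methods the liver of the SHR rat of the six-tissue set had more PCR cycles than that of the BN-Lx rat, and the part of this in its values was not tested. For comparison, the levels of the strains did not overlap for 23 of 271 arms tested (8.49%).

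The edgeR quasi-likelihood test, run on all 271 arms, called 0 (0%) at a Benjamini-Hochberg adjusted p below 0.05, with 6 (2.21%) below an unadjusted 0.05. The latter count was 18 without BN-Lx liver 1, 3 without BN-Lx liver 3, 40 in the 4 further livers alone and 22 with the liver number as a block. DESeq2 also called 0, with 9 arms at an unadjusted p below 0.05. The study itself reported 4 miRNAs that differ between the strains in liver, mir-31 not among them. Its test took the spread from miRNAs of similar level, and it found the difference of mir-34a by qPCR as well. The log2 fold change of SHR over BN-Lx was -0.89 ± 0.389 (SE) for mir-31-3p, with a 95% interval from -1.80 to 0.02, an unadjusted edgeR p of 0.0543 and an adjusted p of 0.995. By its unadjusted p it ranked 7th of the 271 arms. For mir-31-5p it was -0.37 ± 0.872, with an interval from -2.41 to 1.67 and an adjusted edgeR p of 0.995. That interval spans changes of several fold in both directions. The direction for mir-31-5p turned to 0.64 without BN-Lx liver 1, to 0.16 without SHR liver 2 and to 0.58 in the 4 further livers alone. mir-31-3p was lower in the SHR liver than in the BN-Lx liver of the same number for livers 1, 2 and 3. Each liver came from another rat, and only livers 2 and 3 carry a number in their labels. Across numbers, BN-Lx liver 2 (0.982) lay below SHR liver 1 (1.03). With the liver number as a block, mir-31-3p had an unadjusted edgeR p of 0.0196 and an adjusted p of 0.539. With the set of libraries as a term, a fit added after seeing the data, they were 0.0174 and 0.426. The arm was also lower in SHR in each of the fits on fewer livers, between -0.72 and -1.08 over the fits that left out 1 liver, and at -0.88 in the further livers alone.

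The share of the 3p arm in the mir-31 reads was highest in the livers with the least mir-31-5p. This relation is partly arithmetic, because the 5p reads are part of the denominator. Over the livers mir-31-5p spanned 11.6-fold and mir-31-3p 2.89-fold. The 3p share was 11.4% in BN-Lx liver 1, 20.1% in BN-Lx liver 2 and 49.0% in BN-Lx liver 3, where both arms were close to equal. In SHR it was 15.6%, 38.0% and 9.10% in livers 1, 2 and 3. The exact 95% binomial intervals, such as 47.3% to 50.8% in BN-Lx liver 3 and 8.68% to 9.53% in SHR liver 3, were far narrower than these differences. They cover counting error only, because reads from PCR without molecular identifiers are not independent molecules. The strains averaged 26.9 ± 19.7% and 20.9 ± 15.2% (SD, n = 3 each), with an exact permutation p of 0.6.

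The ratio of 5p to 3p reads accordingly ran from 1.04 to 9.99 among livers, a 9.62-fold span. Among the 16 hairpins with at least 50 reads on both arms in each liver it ranked 4th, and the median span was 5.80-fold. Outside liver and testis the 3p share ranged from 1.99% in SHR kidney to 13.6% in SHR spleen. In testis it was 38.9% and 50% of 18 and 10 reads, with intervals from 17.3% to 64.3% and from 18.7% to 81.3%. Thus 4 of the 6 livers had a higher 3p share than every library outside liver and testis, while BN-Lx liver 1 and SHR liver 3 lay below both spleen libraries. The spleen shares rest on 17 (BN-Lx) and 14 (SHR) reads of mir-31-3p, with intervals from 6.93% to 18.0% and from 7.63% to 21.8%. Both intervals include BN-Lx liver 1, SHR liver 1 and SHR liver 3, and that of SHR spleen also BN-Lx liver 2. The order of these livers and spleen is therefore not resolved.

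**Figure D3:**
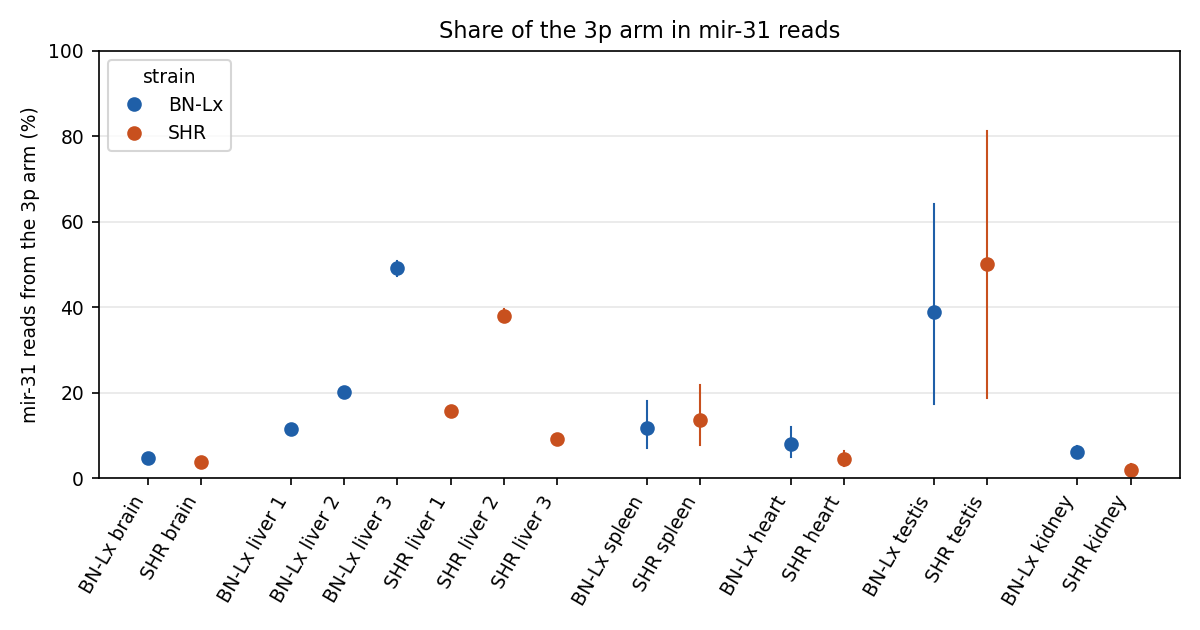
Share of mir-31 reads that came from the 3p arm (percent) in each of the 16 libraries; points are libraries, coloured by strain, and vertical lines are exact 95% binomial (Clopper-Pearson) intervals. The livers range from 9.10% to 49.0%, and the wide lines in testis reflect 18 and 10 reads.

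mir-31-5p began at the same base in nearly every read. Position 28 held between 99.6% and 100% of its reads in every library, so that its seed was almost uniform. Pooled over the livers, the share was 99.8% against a median of 98.4% over 246 arms with at least 100 reads. Liver had a slightly lower share than the other tissues, at 99.8 ± 0.122% in 6 livers against 99.96 ± 0.103% in 9 libraries, with an exact permutation p of 0.0382 and a Benjamini-Hochberg value of 0.114 over 9 tests. This did not pass the threshold. At least 10 reads of an arm were required in a library for these comparisons.

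The 3′ end of mir-31-5p varied. In the livers 1 the 21 nt form ending at position 48 made up 73.8% (BN-Lx) and 71.6% (SHR) of the arm, and the 22 nt form 21.5% and 23.2%. The 22 nt form made up 27.1% and 34.9% of reads in BN-Lx livers 2 and 3 and 30.7% in SHR liver 2. In SHR liver 3 it was the commonest form, with 52.0%. BN-Lx kidney had 40.5% in the 22 nt form, while the other libraries outside liver had between 0% and 16.3%.

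The mean length of mir-31-5p was 21.4 ± 0.174 nt in the 6 livers and 21.1 ± 0.149 nt in the 9 other libraries. The difference of 0.317 nt had an exact permutation p of 0.002 and a Benjamini-Hochberg value of 0.00899. mir-31-3p was longer in liver as well, at 22.5 ± 0.108 nt in 6 livers against 22.1 ± 0.193 nt in 8 libraries. Its difference of 0.405 nt had an exact permutation p of 0.00167, also with a Benjamini-Hochberg value of 0.00899, and every liver but SHR liver 1 lay above all other libraries.

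Longer reads in liver were common among miRNAs. Of 158 arms with enough reads, 68 (43%) differed between livers and other tissues at an exact p below 0.05, of which 59 (37.3%) were longer in liver. The median difference was 0.127 nt, and the arms of mir-31 ranked 45th and 31st from the longest shift. The set of libraries moved with it. In the six-tissue set alone mir-31-5p was 0.104 nt longer in liver with an exact p of 0.345, and mir-31-3p 0.374 nt longer with an exact p of 0.0667. The further livers exceeded the livers 1 by 0.319 nt for mir-31-5p and by 0.0462 nt for mir-31-3p, against a median of 0.127 nt over 127 arms, of which 74.8% were longer in the further livers. The further set holds no other tissue, so liver and set cannot be told apart within it.

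mir-31-3p had a less exact 5′ end. Position 64, the RefSeq start, held 78.0% of its reads pooled over the livers, a share that 213 of the 246 arms exceeded. The share was 77.4%, 82.4% and 88.8% in BN-Lx livers 1, 2 and 3, and 75.1%, 70.9% and 72.4% in SHR livers 1, 2 and 3. All BN-Lx livers lay above all SHR livers, with means of 82.9 ± 5.73% and 72.8 ± 2.08% (SD, n = 3 each). The exact permutation p was 0.1, the smallest that 3 against 3 can give, and the Benjamini-Hochberg value was 0.225. The strains did not overlap in this measure for 8 of 127 arms (6.3%).

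Most of the remaining reads began 1 base later, at position 65, and so carried the second mir-31-3p seed shown. They made up 14.7%, 15.7% and 10.2% of mir-31-3p reads in BN-Lx livers 1, 2 and 3 and 14.7%, 25.1% and 21.8% in SHR livers 1, 2 and 3. Livers 2 and 3 of SHR were the highest, whereas the livers 1 were alike. Reads from position 67 were at 6.38% and 7.03% in the livers 1 and at most 2.36% in the further livers, and those from position 66 were between 0.726% and 2.73% in all livers. Outside liver the share at position 64 was 81.3 ± 18.7% in 8 libraries against 77.8 ± 6.73% in 6 livers, with an exact permutation p of 0.747. SHR kidney, the lowest library at 38.5%, rests on 13 reads.

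**Figure D4:**
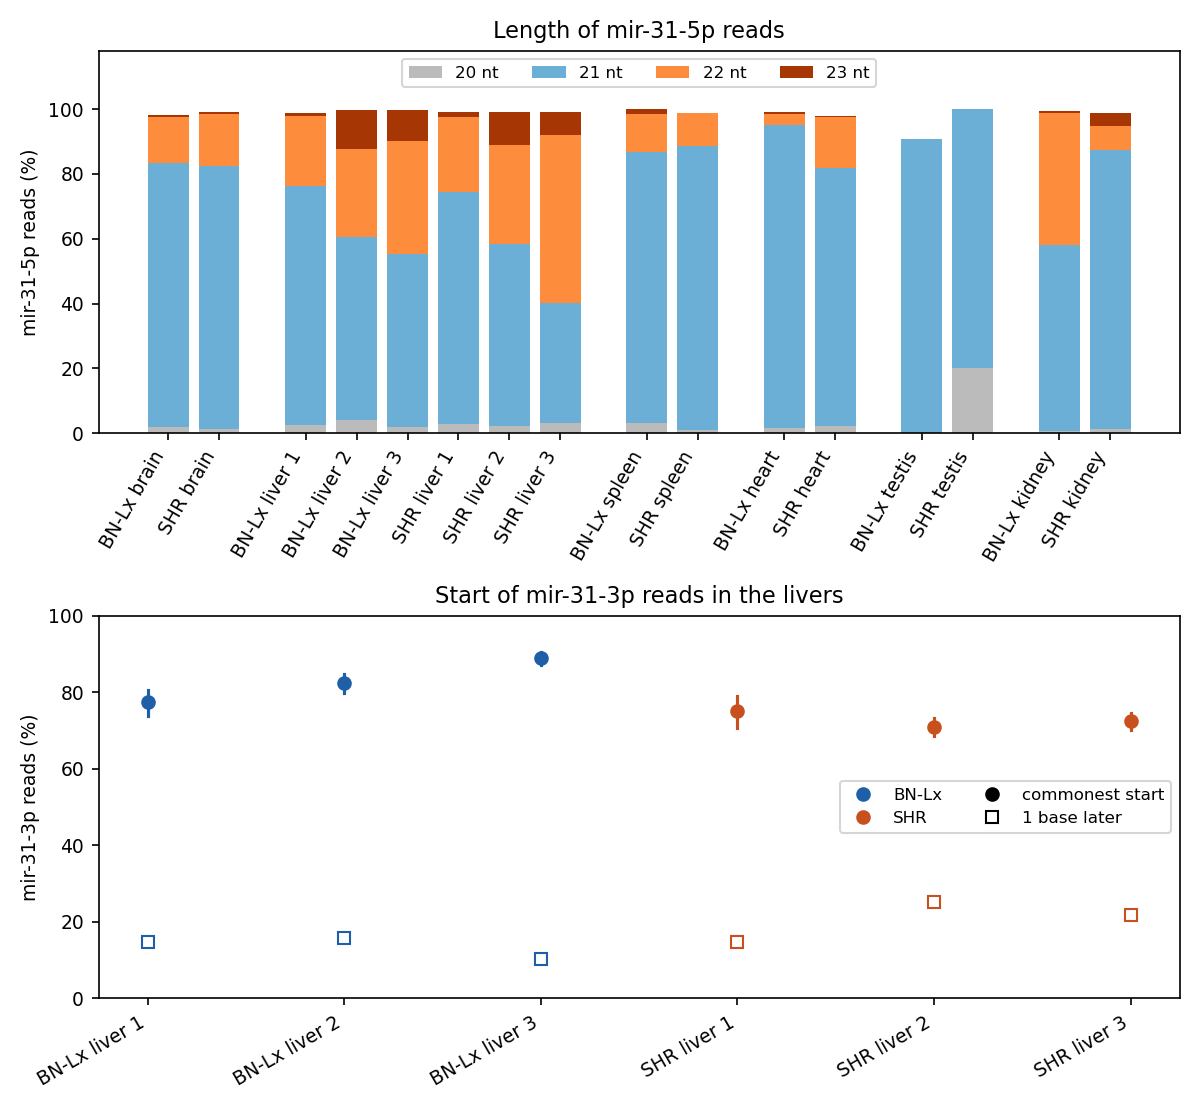
Top, share of mir-31-5p reads of 20 to 23 nt (percent, stacked) in each of the 16 libraries; the few reads of other lengths are not drawn. Bottom, share of mir-31-3p reads at the commonest start (filled circles, with exact 95% binomial intervals) and 1 base later (open squares) in the 6 livers, coloured by strain. The 22 nt form of mir-31-5p is the largest in SHR liver 3, and the filled circles of BN-Lx lie above those of SHR, from 77.4% to 88.8% against 70.9% to 75.1%.

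The opposite strand gave few reads. The antisense hairpin had 32 reads in all 16 libraries together against 36808 of mir-31-5p. The highest number was 8, in SHR heart, followed by 6 each in BN-Lx brain and SHR liver 1. The livers held 9 of them, 2 in BN-Lx liver 1, 6 in SHR liver 1 and 1 in SHR liver 2, and the other livers 0, where a count of 0 allows 3 reads. Of the 32 reads, 24 ran from position 67 to 85 of their own hairpin, as rno-miR-31b does. All came from this arm, and the other arm of the antisense hairpin had no reads.

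The arms whose pattern was most like that of mir-31-5p were ranked by Pearson's r of log2(level + 0.01) over the 12 libraries of the six-tissue set. These points share the livers used by the rule and the depth of each library. Among 206 arms with at least 10 reads in both livers 1, the 5 closest were mir-206-3p (r = 0.857), mir-320-3p (0.803), mir-802-5p (0.798), mir-802-3p (0.793) and mir-193-5p (0.781). The median over the 206 arms was near 0, and mir-31-3p itself had r = 0.707. With a pseudocount of 0.1, 3 of these 5 arms stayed among the closest 5, and with scaling by total reads 4 did.

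mir-206, a miRNA of skeletal muscle, was scarce in liver, at 0.105 and 0.0488 in BN-Lx and SHR liver 1. In the further livers, which the ranking did not use, it was at 0.00105 and 0.147 in BN-Lx livers 2 and 3 and at 0.000446 and 0.169 in SHR livers 2 and 3. It was thus down to 1 read in each of the livers 2 and highest in both livers 3. mir-802-5p stayed between 1.06 and 2.63 in all 6 livers, a much smaller range than that of mir-31-5p. mir-193-5p, at 0.215 and 0.170 in the livers 1, was between 0.412 and 0.598 in the further livers, where mir-31-5p was mostly lower.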

How the data were processed

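The files hold the estimated counts that the authors made, unnormalized, with a value per library at every observed pair of read ends. They sequenced on SOLiD, mapped trimmed reads with SHRiMP to hairpins of RGSC3.4 and miRBase, kept perfect matches and split reads between hairpins they fit equally. mir-31 counts were whole numbers. The piRNA list was not used. Reads under 17 nt occur only in the files of the further livers. By the study's methods, testis and the liver of the SHR rat had more PCR cycles.

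Positions were assigned to arms by midpoint (within 20 nt). The members and lists were chosen with earlier results of these data known. Named were the mir-31 and antisense arms, arms meeting the 5-fold rule, the 2 arms just inside and outside it and the 5 most alike. Livers were compared with edgeR 4.0.16 on counts rounded to whole numbers (TMM, filterByExpr, strain only); SE came from the test statistic. DESeq2 1.42.0 was an alternative. Exact permutation tests were two-sided on the absolute difference; they ignore that libraries share rats. Tests were tested on simulated data. For edgeR these had larger changes than those of mir-31 and less spread than the livers, so they do not show its power here. Each liver came from another rat. Alternatives changed the tool, scaling, filter, minimum reads, minimum length, pseudocount, block and the livers included.

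Livers of the same number had correlations of deviations from their strain means of 0.795, 0.577 and 0.434 over 127 arms, each above 0.1. The deviations of a strain cancel over its 3 livers, so a shift shared by the livers 1 also raises the values for livers 2 and 3. Correlations between livers of different number were not computed, so these values do not show that the numbers pair the livers. The labels number livers 2 and 3, whereas the livers of the six-tissue set have no number and were called 1 here, so the pairing of these comes from their set, and the block is given as an alternative. Figures were drawn with matplotlib 3.10.9. Other versions were scipy 1.17.1, pandas 2.3.3, numpy 2.4.6, Python 3.11.15 and R 4.3.3. Sequences are from RefSeq, GRCr8, and no coordinate was converted from RGSC3.4.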

Additional observations from a re-analysis of the deposited data

How the results depend on the processing

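The edgeR test between strains called 0 arms under every alternative tried, a fit with the set of libraries as a term, chosen after seeing the data, included. In that fit the log2 fold changes were -0.02 for mir-31-5p and -0.89 for mir-31-3p. With the replicate number as a block they were -0.53 and -0.86, and the block changed no call. Arms at an unadjusted p below 0.05 were 6 as reported, 22 with the block, 22 without the filter and 30 with the set as a term, from 3 (without BN-Lx liver 3) to 18 (without BN-Lx liver 1) with 1 liver left out, and 40 in the further livers alone. mir-31-5p ran from -0.96 to 0.64 when 1 liver was left out and was 0.58 in the further livers alone, and the direction turned without BN-Lx liver 1 or SHR liver 2.

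For the level in liver over the next tissue, mir-31-5p moved to 2.43 and 1.17 in BN-Lx with livers 2 and 3, and to 1.09 in SHR with liver 2. mir-31-3p moved in BN-Lx and SHR to 5.01 and 5.13 by total reads, to 14.4 in both with edgeR TMM factors, to 14.9 and 28.7 without testis and to 4.47 and 4.46 with livers 2, and in SHR to 5.01 with liver 3. The number of arms meeting the rule ran from 7 to 12.

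Leaving out 1 liver moved the strain difference in 3p share between -14.5 and 5.16 percentage points, positive without BN-Lx liver 3, and that in mean mir-31-5p length between -0.0591 and 0.154 nt, negative without BN-Lx liver 1 or SHR liver 3. In the six-tissue set alone the liver differences lost their p below 0.05, at -0.0651 points for the mir-31-5p start share, 0.104 nt for its length and 0.374 nt for the length of mir-31-3p. The start share also lost it at 20 or 50 reads, at -0.126 points. The causes were not tested.

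Depth limits testis, with 18 and 10 mir-31 reads, and the mir-31-3p ends outside liver.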
